A study of Arabidopsis thaliana with 12 samples.

Results

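The genes described here were the unnamed open reading frames (ORFs) of the Arabidopsis mitochondrion, taken as all mitochondrial gene IDs other than 38 genes of known function. They numbered 84 of the 122 mitochondrial genes and of 27655 genes in all. Their coding lengths were 303 to 948 nucleotides (nt), with a median of 376.5 nt. The material was wild-type Col-0 seedlings, 7 days old, grown in shaken liquid medium and mock-treated with DMSO at 0.1% of the medium volume at 3 hours after lights on, then harvested 20 or 60 minutes later. The study made 6 Ribo-seq and 6 RNA-seq libraries from such plants, and the lysates held cycloheximide and chloramphenicol, which stall ribosomes of the cytosol and of the organelles. Ribo-seq reads the pieces of RNA left under a ribosome after nuclease digestion (footprints, cut from a gel at 28 to 30 nt), and RNA-seq of rRNA-depleted RNA measures the transcripts themselves. All groups were wild type under the same mock treatment, so the comparison is between the assays: how many footprints a gene had for its RNA.

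Each assay was deposited as 1 value per gene for its 6 libraries together. No spread between replicates and no test can therefore be given, and every interval below is a 95% interval that covers counting error only. The Ribo-seq table summed to 299584069 expected counts, and the RNA-seq table summed to 51390094. The Ribo-seq labels name seedlings in the title and root in the description. Levels are given in TPM, a unit of transcript abundance scaled for length and depth. The 5 leaf markers summed to 21807 TPM in Ribo-seq and 17983 TPM in RNA-seq, and the 6 root markers to 119 TPM in Ribo-seq and 89.4 TPM in RNA-seq. No marker was at 0 in either assay.

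Plant mitochondrial genomes are large, recombine often and carry much sequence that came from the plastid and from their own genes. Long frames without a stop codon arise in them by such rearrangement, and many were given gene IDs when the genome was annotated without any known product. Some of them lie beside genes of the respiratory chain, and neighbouring mitochondrial genes are often copied into 1 RNA. In the Col-0 nucleus, chromosome 2 carries a large insertion of mitochondrial DNA, so that many of these ORFs have a near-identical nuclear copy.

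Of the 84 ORFs, 37 were placed in the mitochondrial sequence of the TAIR10.1 reference, which is 367808 nt long. For 29 of them the position came through a nuclear gene or pseudogene whose annotation note names that ORF as its closest match or source, 25 with the same coding length and 4 with another. For 8 the position came from coding length alone, a rule that found the right place in 21 of 24 genes on which it could be checked. Most of the genes checked were named ones, and the misses were cox2 and the unnamed ORFs ATMG00150 and ATMG00880. The rate for unnamed ORFs was thus lower than for all genes checked. The other 47 ORFs were not placed and are described by their values only.

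The 5 ORFs with most footprints carried pieces of named genes, and the stretches below show this for them and for a further ORF with few footprints. Each pair gives the ORF first and the named gene under it, 5′ to 3′, with bases that differ between the pair in capitals. The first pair is the start of the longest match between ATMG00280 and rbcL, the plastid gene for the large subunit of RuBisCO. The ORF lies at 164947-165297 on the plus strand of the mitochondrial sequence, and the stretch shown at 164985-165074.
ATMG00280: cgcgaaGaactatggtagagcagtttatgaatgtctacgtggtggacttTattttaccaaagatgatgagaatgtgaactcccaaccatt
rbcL: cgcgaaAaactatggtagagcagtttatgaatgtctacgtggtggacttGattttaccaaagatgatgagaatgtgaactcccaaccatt

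The next pair is the start of ATMG00040 (31115-31204, plus strand, placed by length alone) with atp9, the gene for the ring subunit of the mitochondrial ATP synthase. RefSeq starts the coding sequence of atp9 at nt 34 of this stretch, while the coding length of atp9 in the tables, 258 nt, is that of a frame from its first base.
ATMG00040: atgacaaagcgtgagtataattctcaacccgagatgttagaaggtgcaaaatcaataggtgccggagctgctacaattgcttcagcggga
atp9: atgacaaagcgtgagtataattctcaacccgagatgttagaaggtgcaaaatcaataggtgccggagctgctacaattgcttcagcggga

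ATMG01280 (84305-84394, minus strand) opened with the start of cox2, which encodes subunit 2 of cytochrome c oxidase.
ATMG01280: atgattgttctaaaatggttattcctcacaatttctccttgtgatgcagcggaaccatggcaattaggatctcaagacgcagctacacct
cox2: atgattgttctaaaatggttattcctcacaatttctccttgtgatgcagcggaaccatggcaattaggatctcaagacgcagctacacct

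ATMG00590 (207369-207458, minus strand) opened with the start of cob, the gene for apocytochrome b.
ATMG00590: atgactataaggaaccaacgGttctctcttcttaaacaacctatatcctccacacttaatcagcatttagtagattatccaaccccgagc
cob: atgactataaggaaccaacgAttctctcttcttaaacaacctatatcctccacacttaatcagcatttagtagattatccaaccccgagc

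ATMG00370 (43125-43214, minus strand) opened close to the start of the plastid gene ycf1, whose product is known from protein import into the chloroplast.
ATMG00370: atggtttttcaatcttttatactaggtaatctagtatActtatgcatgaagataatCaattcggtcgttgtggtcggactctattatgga
ycf1: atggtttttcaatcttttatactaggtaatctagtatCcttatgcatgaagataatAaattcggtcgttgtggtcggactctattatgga

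ATMG01090 (270573-270650, minus strand) is shown as the contrast, since it had abundant RNA and few footprints, and matched nad5, a subunit gene of complex I, over a short stretch.
ATMG01090: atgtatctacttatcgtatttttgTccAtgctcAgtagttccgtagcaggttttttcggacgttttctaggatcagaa
nad5: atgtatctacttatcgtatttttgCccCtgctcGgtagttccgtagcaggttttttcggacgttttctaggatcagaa

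All 84 ORFs had at least 1 count in each assay. Their median level was 0.32 TPM in Ribo-seq and 13.3 TPM in RNA-seq, against 85.3 TPM in Ribo-seq and 129 TPM in RNA-seq for the 38 named mitochondrial genes. In Ribo-seq 68 of the 84 were under 1 TPM, and 63 had fewer than 100 footprints, down to the 4 footprints of ATMG00890. In RNA-seq 9 ORFs exceeded 100 TPM, 58 lay between 5 and 50 TPM and 10 were under 5 TPM.

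**Figure D1:**
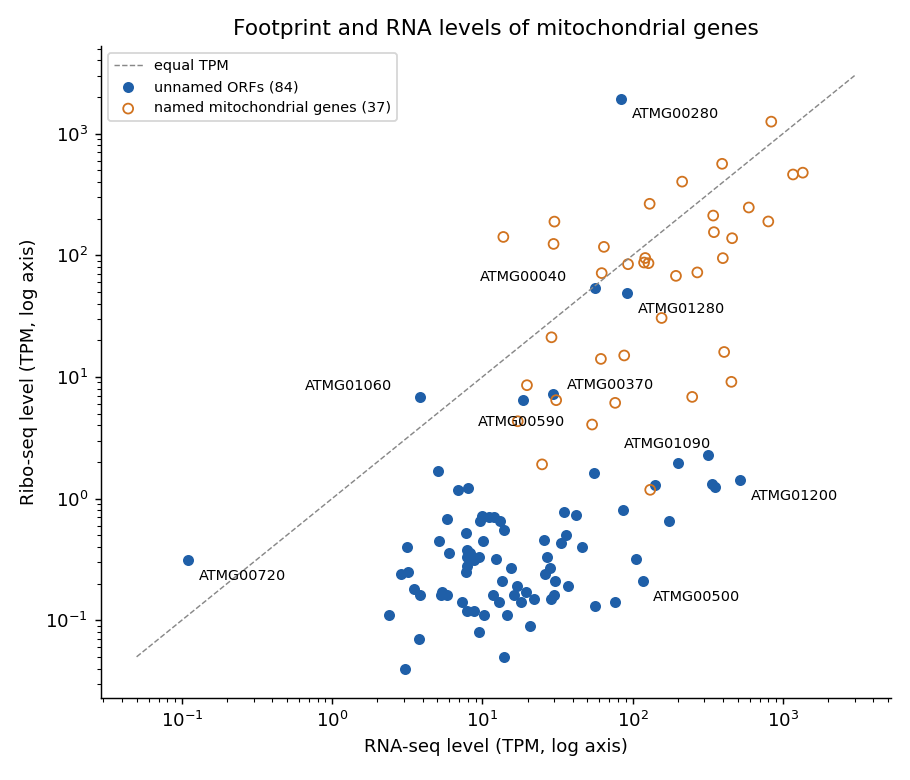
Level of each unnamed ORF (filled) and each named mitochondrial gene (open) in Ribo-seq (vertical) and RNA-seq (horizontal), in TPM on log axes, 1 value per gene and assay. Most unnamed ORFs lie under 1 TPM in Ribo-seq at RNA-seq levels of 5 to 50 TPM, while ATMG00280 stands at 1941 TPM in Ribo-seq and 83.9 TPM in RNA-seq. The dashed line marks equal TPM, and 1 named gene listed at 0 is left out.

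Footprints per RNA were expressed as a log2 ratio of TPM values, Ribo-seq over RNA-seq, after 0.1 was added to each, so that a negative ratio means fewer footprints than the RNA level. The median ratio of the 84 ORFs was -4.98, which is 31.5-fold fewer footprints, and the quartiles were -6.26 and -3.77. The fold depends on the scale: it was 9.13 with a pseudocount of 1 and 14.2 on CPM, which has no length term. The named mitochondrial genes with a ratio (37 of 38) had a median of -1.34, and all 21620 genes with a ratio had 0.11. Nuclear genes with coding lengths in the same range, 303 to 948 nt (7537 genes with a ratio), had 0.30. Lengths were not matched within that range: all 10222 nuclear genes in it had a median of 615 nt, against 376.5 nt for the ORFs. A ratio under -1 was found in 79 of the 84 ORFs, which is 94.0%, against 10.9% of all genes with a ratio and 59.5% of the named mitochondrial genes. In each of those 79 the whole counting interval lay under -1. A ratio under -4, a limit chosen after the values were seen, held in 60 ORFs, against 0.800% of all genes. One ORF, ATMG00280, had a ratio over 1, against 8.39% of all genes.

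The values nearest the limit of -1 were -1.53 for ATMG00590, inside it, and -0.92 for ATMG01280, outside it. At -4 they were -4.06 for ATMG00120 and -3.92 for ATMG00600. The ratios of the unnamed ORFs ran from -8.55 to 4.53, and 13 of the 84 lay below the lowest ratio of a named mitochondrial gene, -6.68.

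**Figure D2:**
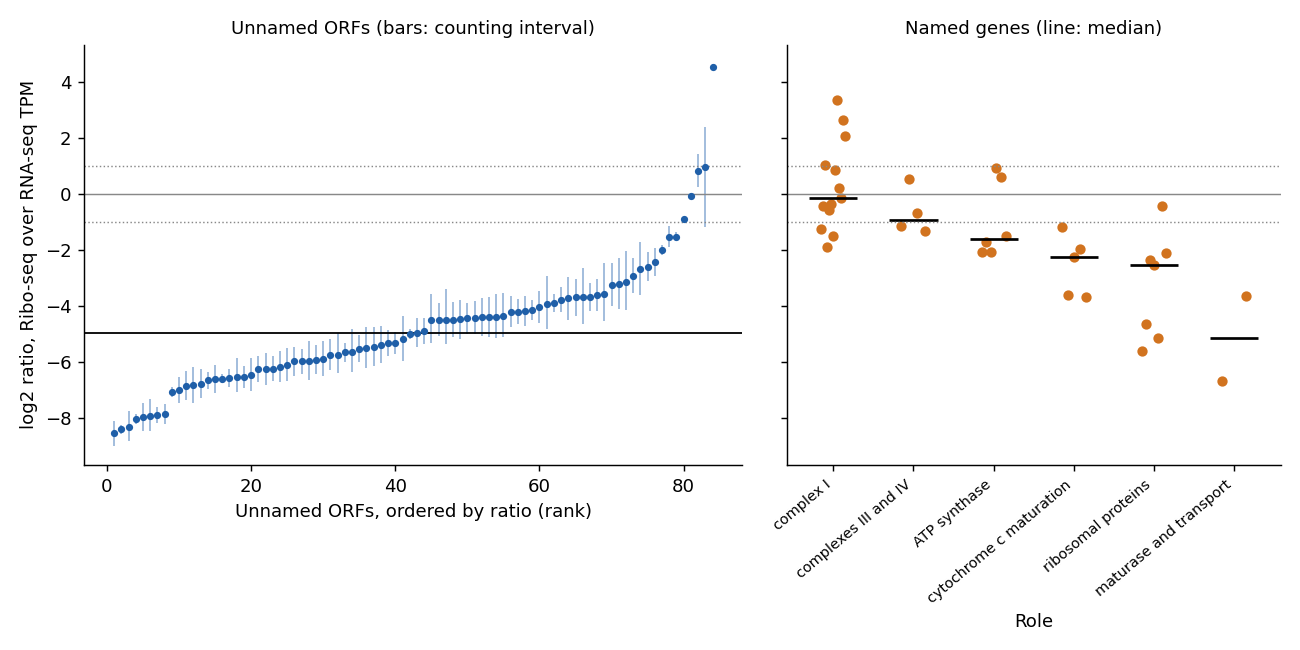
Log2 ratio of Ribo-seq over RNA-seq TPM for the 84 unnamed ORFs in order (left, bars are 95% counting intervals, the black line is the median of -4.98) and for the named mitochondrial genes by role (right, short lines are medians). Most unnamed ORFs lie below the complex I, complex III and IV and ATP synthase genes, with 6 inside the range of complex I, and 46 lie inside the range of the ribosomal protein genes. Dotted lines mark ratios of 1 and -1.

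The named genes were not uniform themselves. By role, their median ratio was -0.14 for 13 complex I genes and gene pieces, -0.93 for the 4 genes of complexes III and IV, -1.62 for the 6 ATP synthase genes, -2.25 for the 5 genes of cytochrome c maturation, -2.54 for the 7 ribosomal protein genes and -5.16 for the pair of maturase and transport genes. Of the 84 unnamed ORFs, 6 lay within the range of complex I, 2 within that of complexes III and IV, 6 within that of ATP synthase, 14 within that of cytochrome c maturation, 46 within that of the ribosomal proteins and 54 between the maturase and the transport gene. These are counts and medians of single pooled values, and no test stands behind them.

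The most abundant unnamed RNA was ATMG01200. It had 415 footprints and 24087 RNA-seq counts, or 1.43 TPM in Ribo-seq and 519 TPM in RNA-seq, a ratio of -8.41 (-8.56 to -8.26). Its position by length alone lay 146 nt before atp1, the gene of ATP synthase subunit alpha, on the same strand. atp1 itself had 478 TPM in Ribo-seq and 1356 TPM in RNA-seq, a ratio of -1.51. So ATMG01200 was at 0.299% of atp1 in Ribo-seq and at 38.3% of atp1 in RNA-seq, both in TPM.

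ATMG01220, placed 1530 nt before atp1, had 139 footprints and 1465 RNA-seq counts, or 1.3 TPM in Ribo-seq and 140 TPM in RNA-seq, a ratio of -6.65. ATMG01210, between these, lay 1089 nt before atp1 and had 0.50 TPM in Ribo-seq and 36.2 TPM in RNA-seq. All of these ORFs upstream of atp1 thus had footprints at no more than 1.43 TPM and RNA well above 10 TPM.

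ATMG00690 and ATMG01130 were not placed. ATMG00690 had 294 footprints and 12635 RNA-seq counts, or 1.25 TPM in Ribo-seq and 354 TPM in RNA-seq, a ratio of -8.04. ATMG01130 had 130 footprints, or 1.31 TPM in Ribo-seq and 337 TPM in RNA-seq, a ratio of -7.90. Both belonged with ATMG01200 to the 3 most abundant RNAs of the 84.

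ATMG00660, placed by length alone 186 nt after a piece of nad5, had 325 footprints and 5567 RNA-seq counts, or 2.27 TPM in Ribo-seq and 317 TPM in RNA-seq, a ratio of -7.07. It was 1 of 2 placed ORFs with fewer than 10% of their 28-nt windows (28-mers) anywhere in the nuclear genome. The other was ATMG00140, also placed by length alone, at 0.14 TPM in Ribo-seq and 12.8 TPM in RNA-seq, a ratio of -5.75. Low ratios were thus also measured in the ORFs that shared almost no sequence with the nucleus.

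The lowest ratio of all was that of ATMG00500, which lies 582 nt after atp8, an ATP synthase gene. It had 27.9 footprints and 1855 RNA-seq counts, or 0.21 TPM in Ribo-seq and 116 TPM in RNA-seq, a ratio of -8.55 (-8.99 to -8.11). atp8 itself had 190 TPM in Ribo-seq and 800 TPM in RNA-seq, a ratio of -2.08. ATMG00490, at 0.32 TPM in Ribo-seq and 105 TPM in RNA-seq, had a ratio of -7.97. Its expected counts and those of ATMG00500 were not whole numbers, as in genes whose reads the counting program shares out. In each assay the counts of these ORFs add to a whole number (32.07 and 27.93 footprints, 977.58 and 1855.42 RNA-seq counts). The identical chromosome 2 copy of ATMG00500 had whole counts, at 40 footprints and 1884 RNA-seq counts. The ratios of ATMG00490 and ATMG00500 may thus not be separate measurements.

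Before nad3, a complex I gene, lay ATMG01010 (287586-287942, plus strand) and ATMG01000 (287740-288084, plus strand), which overlap each other, and the last 41 nt of ATMG01000 overlap nad3. ATMG01000, placed by length alone, had 0.65 TPM in Ribo-seq and 174 TPM in RNA-seq, a ratio of -7.85. ATMG01010 was placed through a nuclear gene whose note describes this ORF as an unknown conserved protein, and it ends 101 nt before nad3. ATMG01010 had 0.14 TPM in Ribo-seq and 76.1 TPM in RNA-seq, a ratio of -8.31. nad3 stood at the other end of the scale, with 124 TPM in Ribo-seq and 29.8 TPM in RNA-seq, a ratio of 2.05. The ORFs and the gene next to them on the same strand thus lay at opposite ends of the mitochondrial ratios. Reads from the overlapping bases could have gone to either, and expected counts were not whole numbers. Footprints were 69.72 for ATMG01000, 15.49 for ATMG01010 and 13975.79 for nad3, which add to a whole number. So do the RNA-seq counts of the ORFs, 1848.62 and 869.38, while nad3 had 346. The ratios of these ORFs thus depend on how shared reads were divided.

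Across the 37 placed ORFs, 12 lay within 1000 nt of an annotated protein or rRNA gene on the same strand. Their median level was 1.56 TPM in Ribo-seq and 88.1 TPM in RNA-seq. The 25 placed ORFs farther away had medians of 0.25 TPM in Ribo-seq and 13.5 TPM in RNA-seq. Median ratios were -6.43 for the 12 near ORFs and -5.39 for the 25 others. The medians of both levels were thus higher in the ORFs near a gene, and the medians of the ratio differed less. The near ORFs include ATMG00280, ATMG01280, ATMG00590, ATMG00910, ATMG01090 and ATMG01000, which share stretches with named genes. Of such sharing ORFs, only ATMG00040 and ATMG00370 lie farther away. Distance was not separated from shared sequence here.

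The 84 ORFs were also ordered by RNA-seq level and divided into 4 bins of 21. From the highest to the lowest bin the median Ribo-seq level was 0.81, 0.21, 0.33 and 0.25 TPM, and the median RNA-seq level was 86.3, 20.9, 9.55 and 5.05 TPM. Median ratios were -6.65, -6.13, -4.39 and -3.67 in the same order. The Ribo-seq level changed little over the 3 lower bins. Since the RNA-seq level is the divisor of the ratio, the lower ratio at higher RNA follows from that within these bins. In the highest bin the median levels of both assays were higher than in the next. Spearman's rho between log2 levels of the assays was 0.33 across the 84 ORFs, against 0.54 across 37 named mitochondrial genes and 0.94 across 21422 nuclear genes. These are correlations across genes of the same pooled libraries, and genes are not independent replicates.

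Footprints were concentrated in very few ORFs. The 84 ORFs together took 0.0807% of all Ribo-seq counts (0.0803 to 0.0810%) and 0.173% of all RNA-seq counts (0.172 to 0.174%, exact binomial intervals). Of their 241635 footprints, ATMG00280 alone held 83.2%, and it held 0.934% of their 88743 RNA-seq counts. The 5 ORFs with most footprints, ATMG00280, ATMG00040, ATMG01280, ATMG00590 and ATMG00370, held 97.4% of the footprints and 10.9% of the RNA-seq counts. Among mitochondrial genes the 84 ORFs held 14.8% of Ribo-seq and 14.3% of RNA-seq counts, and without ATMG00280 they held 2.82% of Ribo-seq and 14.2% of RNA-seq counts.

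All of these 5 ORFs are among the sequences shown above that share stretches with named genes. Of the 37 placed ORFs, 8 shared at least one 28-mer with a named mitochondrial or plastid gene, and the 6 highest ratios of the 37 were all among those 8. The 8 had a median ratio of -1.53 and the other 29 of -5.75, with the highest of the 29, ATMG00050, at -2.45. By length alone, ATMG00050 (31655-32050, minus strand) lies inside ATMG00040 (31115-32062, plus strand), which is one of the 8. Whether counting used strand is not known. The other members of the 8 were ATMG01090 at -6.60 and ATMG01000 at -7.85. Sharing of sequence and a higher ratio thus went together in 6 of 8 ORFs, and the part of shared reads in their footprints was not tested.

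**Figure D3:**
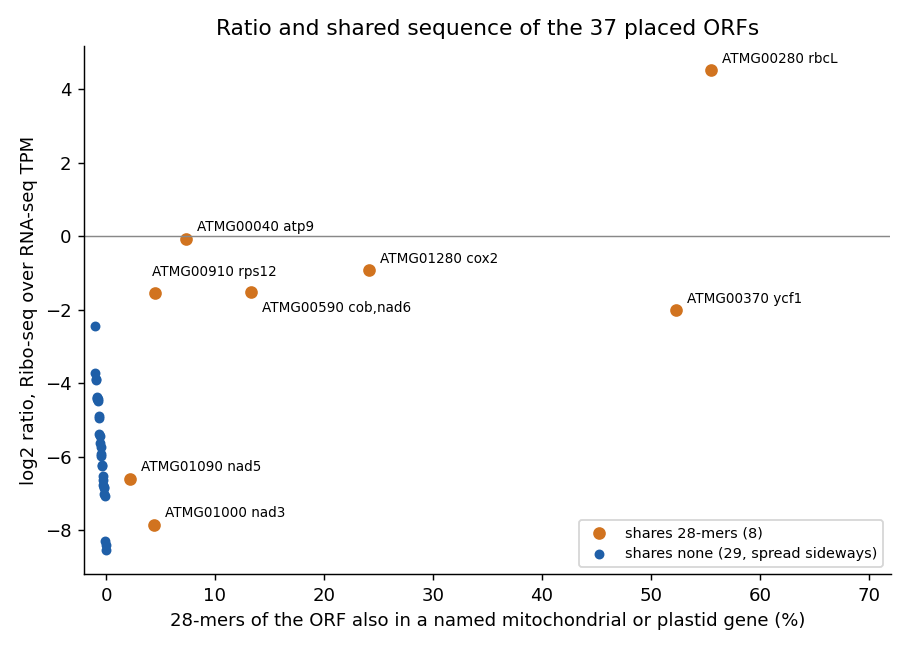
Log2 ratio of Ribo-seq over RNA-seq TPM of the 37 placed ORFs against the share of their 28-mers that also occur in a named mitochondrial or plastid gene, with the gene named at each point. The 29 ORFs sharing none are spread sideways at 0 and reach -2.45 at most, while 6 of the 8 sharers lie above that.

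ATMG00280 had 201078 footprints and 829 RNA-seq counts, or 1941 TPM in Ribo-seq and 83.9 TPM in RNA-seq, a ratio of 4.53 (4.43 to 4.64). Its Ribo-seq level was the highest of all 122 mitochondrial genes, above the 1255 TPM of atp9. Over 305 nt the reference ORF was 98.0% identical to rbcL, with 6 mismatches. Of its 28-mers 55.6% occur in rbcL, of its windows of 100 nt 15.9%, and of its windows of 200 nt none. rbcL had 7160 TPM in Ribo-seq and 48305 TPM in RNA-seq, so that ATMG00280 was at 27.1% of rbcL in Ribo-seq and at 0.174% of rbcL in RNA-seq.

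The chromosome 2 counterpart of ATMG00280, whose note describes that ORF by a RuBisCO large chain catalytic domain, showed the same pattern. It had 114059 footprints and 377 RNA-seq counts, a ratio of 4.92 (4.77 to 5.08), and 46.9% of its 28-mers occur in rbcL. High footprint counts beside low RNA-seq counts were thus listed for both rbcL-like frames. Of the 28-mers of the ATMG00280 reference ORF, 91.4% occur in the nuclear genome. Reads could thus have been divided between these frames, and their ratios may not be separate measurements. The coding length of ATMG00280 in the tables is 333 nt and that of the reference ORF is 351 nt.

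ATMG00040 had 16798 footprints and 2853 RNA-seq counts, or 53.9 TPM in Ribo-seq and 56.4 TPM in RNA-seq, a ratio of -0.07 (-0.14 to 0.01). Over its first 158 nt the frame was 98.7% identical to atp9, and 7.38% of its 28-mers occur in the shorter coding sequence that RefSeq gives for atp9. In TPM, ATMG00040 was at 4.29% of atp9 in Ribo-seq and at 6.74% of atp9 in RNA-seq. In counts, with no regard to length, it was at 17.1% of atp9 in Ribo-seq and at 64.5% in RNA-seq. Because the position of ATMG00040 rests on its length alone, so does its match to atp9.

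ATMG01280, described through its nuclear counterpart by a transmembrane domain like that of cytochrome c oxidase subunit 2, had 14023 footprints and 4233 RNA-seq counts. This was 48.8 TPM in Ribo-seq and 92.4 TPM in RNA-seq, a ratio of -0.92 (-0.99 to -0.85). Summed with its chromosome 2 copy, which is 99.8% identical, the ratio was -0.80, outside this interval. The first 306 nt of ATMG01280 were 96.7% identical to cox2, and 24.1% of its 28-mers occur there. The ORF lies 197 nt before a piece of nad1.

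ATMG00590, described as a cytochrome b/b6 protein, begins with 130 nt that are 99.2% identical to cob and goes on with a stretch shared with nad6. It had 6.41 TPM in Ribo-seq and 18.7 TPM in RNA-seq, a ratio of -1.53 (-1.68 to -1.37), and 13.3% of its 28-mers occur in these genes. ATMG00370, described as a Ycf1 protein, was 97.6% identical to plastid ycf1 over 533 nt, and 52.4% of its 28-mers occur there. ATMG00370 had 7.23 TPM in Ribo-seq and 29.4 TPM in RNA-seq, a ratio of -2.01 (-2.18 to -1.83), and the full-length plastid ycf1 had a ratio of -4.35. Both ORFs have a chromosome 2 copy identical at every base, so their own ratios rest on how reads were divided. Summed with that copy, the ratios were -1.77 for ATMG00590 and -2.39 for ATMG00370, both outside the intervals given here. ATMG00370 and ATMG00280 thus had higher ratios than the plastid genes they resemble (rbcL had -2.75), while ATMG00040 and ATMG01280 had lower ratios than atp9 (0.58) and cox2 (0.52).

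The reference frame of ATMG00910, an unknown protein by the note on its counterpart, shares its first 63 nt with the ribosomal protein gene rps12. It had 1.68 TPM in Ribo-seq and 5.05 TPM in RNA-seq, a ratio of -1.53 (-1.90 to -1.16). The table gives its coding length as 648 nt and the reference frame has 822 nt, and whether the counted frame holds the shared stretch is not known. Without ATMG00910, 5 of 7 sharing ORFs lay above all 29 placed ORFs that share none.

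**Figure D4:**
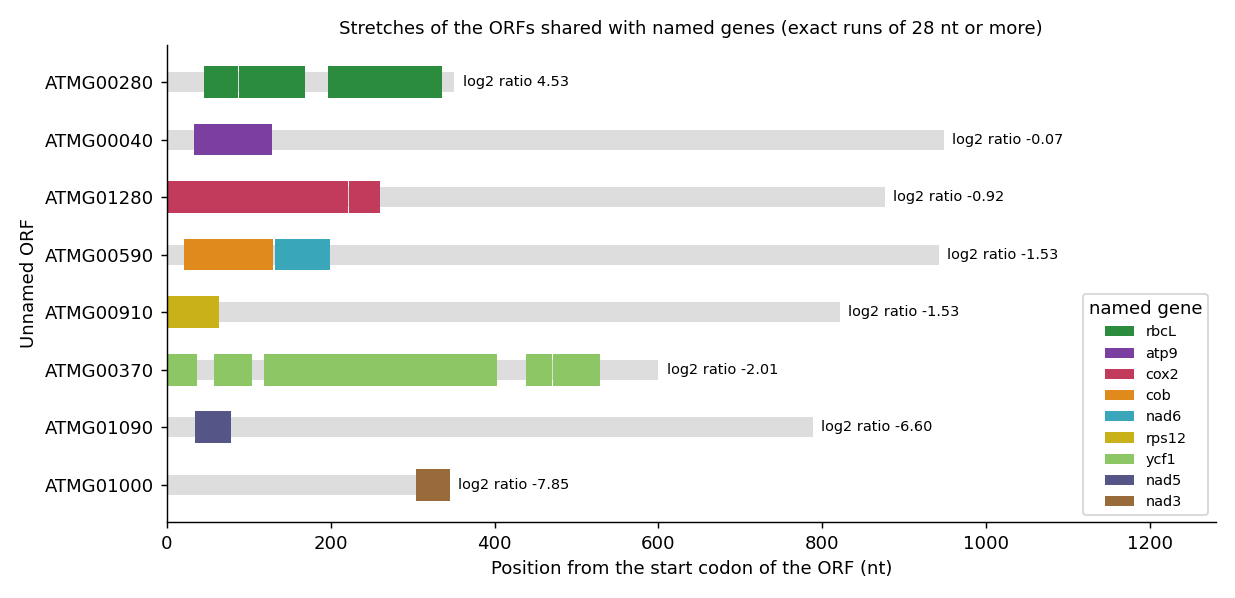
Stretches of the 8 placed ORFs that match a named gene exactly over 28 nt or more (coloured by gene) along each ORF (grey), in nt from its start codon, with the log2 ratio at the right. Matches to atp9, cox2, cob and rps12 lie in the first part of their ORFs, those to rbcL and ycf1 run over most of the ORF, and the short match of ATMG01090 to nad5 goes with a ratio of -6.60.

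ATMG01090 shows that a piece of a named gene did not go with footprints in every case. It had 509 footprints and 8039 RNA-seq counts, or 1.97 TPM in Ribo-seq and 201 TPM in RNA-seq, a ratio of -6.60 (-6.75 to -6.45). Summed with its near-identical chromosome 2 copy, the ratio was -5.85, outside this interval. Only 2.23% of the 28-mers of ATMG01090, 17 of 762, occur in nad5. The 78 nt in common would hold 51 without their 3 mismatches. ATMG01090 lies 310 nt after atp9, on the same strand, and the note on its nuclear counterpart describes this ORF as mitochondrial ATP synthase 9. In TPM, ATMG01090 was at 0.157% of atp9 in Ribo-seq and at 24% of atp9 in RNA-seq. In counts, with no regard to length, it was at 0.519% of atp9 in Ribo-seq and at 182% in RNA-seq. The effective length of atp9 in RNA-seq was only 79.5 nt.

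A further 2 ORFs with high ratios were not placed. ATMG01060 had 691 footprints and 36 RNA-seq counts, or 6.87 TPM in Ribo-seq and 3.87 TPM in RNA-seq, a ratio of 0.81 (0.24 to 1.42). ATMG00720 had 31 footprints and 1 RNA-seq count, and its ratio of 0.97 had an interval of -1.20 to 2.39. With a single RNA-seq count, the ratio of ATMG00720 does not tell whether its footprints were more or fewer than its RNA. Next in order came ATMG00050 at -2.45, ATMG01250 at -2.61, ATMG01240 at -2.69, ATMG00680 at -2.92 and ATMG00770 at -3.13, each with 22 to 148 footprints.

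Of further unplaced ORFs, ATMG00670 had 441 footprints and 2355 RNA-seq counts, a ratio of -5.00, and ATMG01350 had 113 footprints and 1444 RNA-seq counts, a ratio of -6.57. ATMG01370 had 14 footprints and 563 RNA-seq counts, a ratio of -7.93. Of the placed ORFs, ATMG01110 is described through its counterpart as a mitovirus RNA-dependent RNA polymerase (the replicase of viruses that live in mitochondria). It had 0.71 TPM in Ribo-seq and 11.9 TPM in RNA-seq, a ratio of -3.88 (-4.21 to -3.56). ATMG00610, also placed and described as a putative membrane lipoprotein, had 0.19 TPM in Ribo-seq and 37.4 TPM in RNA-seq, a ratio of -7.01. ATMG00620 and ATMG01100, both placed, followed at -6.85 and -6.84. The 20 ORFs described only as unknown proteins had a median ratio of -5.29, from -8.55 to -1.53, and all 20 lay under -1.

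The mitochondrial insertion in chromosome 2 bears on what these counts measure. Of the 37 placed ORFs, 32 had at least 90% of their 28-mers in the nuclear genome, and 16 had a copy of the same length with a row in the tables. These copies were 99.7 to 100% identical, 10 of them at every base. The mitochondrial ORF held 30.0 to 66.7% of the pair's footprints (median 54.6%) and 44.1 to 91.8% of the pair's RNA-seq counts (median 55.5%). ATMG00500 and its copy, identical at every base, had 27.9 and 40 footprints, and 1855 and 1884 RNA-seq counts. Reads of identical copies cannot be told apart, so such a pair has 1 measured sum, and its split between the copies says nothing of either.

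**Figure D5:**
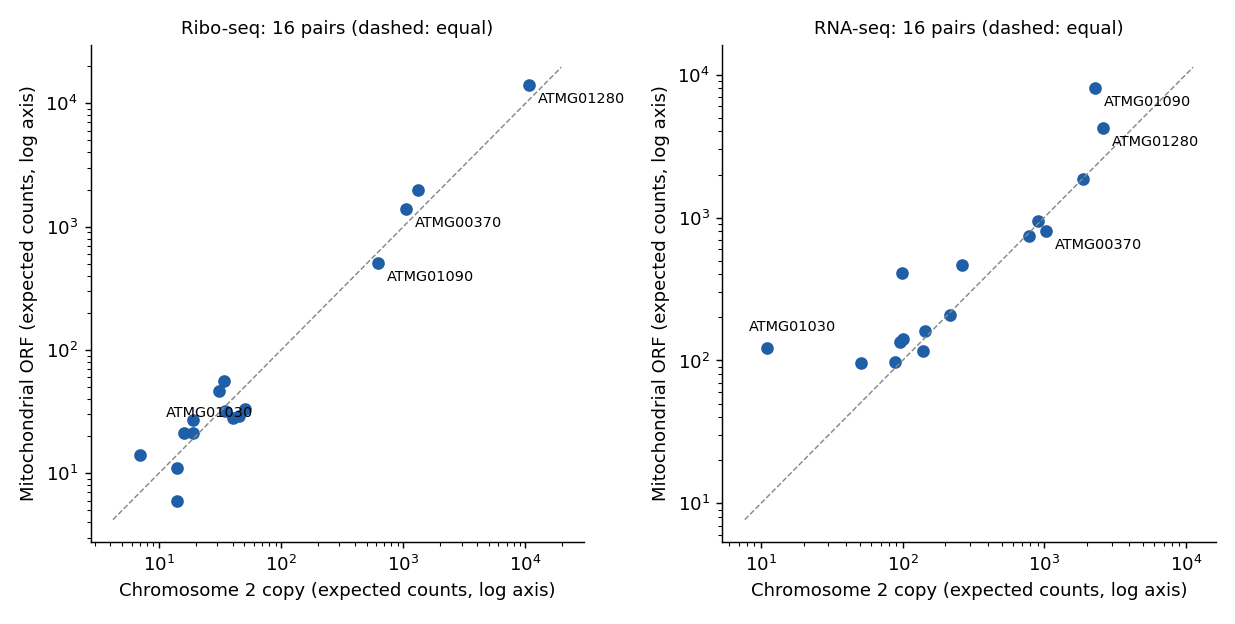
Expected counts of 16 unnamed mitochondrial ORFs (vertical) against their near-identical chromosome 2 copies (horizontal), in Ribo-seq (left) and RNA-seq (right), on log axes. Most pairs lie near the dashed line of equal counts, and ATMG01090 and ATMG01030 lie above it in RNA-seq.

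The division of reads differed with identity. In the 6 pairs that differ at 1 base or more the mitochondrial ORF held 44.0 to 66.7% of the footprints, and in the 10 identical pairs it held 30.0 to 62.2%. Of the RNA-seq counts it held 62.0 to 91.8% in the differing pairs and 44.1 to 58.5% in the identical pairs. ATMG01090, 99.7% identical to its copy, had 509 footprints against 623 in the copy, and 8039 RNA-seq counts against 2293 in the copy. ATMG01030 had 21 footprints against 16 in the copy, and 123 RNA-seq counts against 11 in the copy. The RNA-seq counts thus leaned to the mitochondrial sequence where the copies differ, and the ranges of the footprint counts overlapped. The median ratio of the 16 ORFs was -5.42, that of their copies -4.54, and that of the summed pairs, which does not depend on how reads were divided within a pair, was -5.24.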

How the data were processed

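The deposited files are RSEM output, 1 for Ribo-seq and 1 for RNA-seq, in which the authors gave expected counts (not normalized), TPM and FPKM per gene. FPKM was not used. The tools in the submitters' processing notes are RSEM 1.3.1, STAR and Bowtie2 2.3.4.1. Not given in the sources used here are how 6 libraries became 1 table, which of them belong to 20 or 60 minutes, the annotation, and the use of strand. The tables name every gene, and 0 columns of other samples were present.

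Members and lists were chosen with earlier results of these data known. A pseudocount of 0.1 was added to both TPM values before the log2 ratio was taken, and genes at or under 0.1 TPM in RNA-seq got none. Ratios of genes with low levels are pulled towards 0 by the pseudocount. Intervals combine exact Poisson intervals of both counts at 95%, and intervals on shares are exact binomial (Clopper-Pearson). Reads amplified by PCR are not independent molecules, so all intervals cover counting error only. For the ORFs, effective lengths were shorter than coding lengths by a median of 27 nt in Ribo-seq and 185 nt in RNA-seq, which raises RNA-seq TPM more in short ORFs.

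ORFs were placed in the TAIR10.1 sequence through the annotation's notes on chromosome 2 genes (at least 10 shared 24-mers and the same length, or 95% identity for another length), then by unique coding length. Sequences and descriptions are from RefSeq, TAIR10.1. Shared sequence was counted as 28-mers, and stretches were aligned with BLAST+ 2.17.0. A planned protein comparison was not made, and 28-mers stand in its place. Named ORFs were those with the 12 highest levels in either assay, the 12 highest and 12 lowest ratios with at least 10 RNA-seq counts, and up to 4 of each sequence class. ATMG00140, ATMG00120, ATMG00600, ATMG00720, ATMG00890, ATMG01030 and ATMG01210 were named outside this rule, after their values were seen. ATMG00150 and ATMG00880 were named only for the check of placement by length. The ratio was recomputed with a larger pseudocount (1), from CPM (counts scaled to the sum of each assay, with no regard to length), from sums with nuclear copies and under other filters. Python 3.11.15, numpy 2.4.6, pandas 2.3.3, scipy 1.17.1, Biopython 1.88 and matplotlib 3.10.9 were used.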

Additional observations from a re-analysis of the deposited data

How the results depend on the processing

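No paired analysis was possible because each table holds 1 pooled column per assay, and for the same reason no replicate could be left out. The median ratio of the 84 ORFs, -4.98, was -3.19 with a pseudocount of 1, -3.83 on CPM, which has no length term, and -6.41 over the 2 placed ORFs with under 10% of their 28-mers elsewhere, where the count under -1 was 2. The other planned filters and sums left the median between -5.00 and -4.96 and the count at 78 or 79. Without the 8 placed ORFs that share 28-mers with named genes, the median was -5.26 and 74 of 76 lay under -1. That alternative was chosen after seeing the data. The 76 include the 47 unplaced ORFs, whose sharing was not examined. All 84 coding lengths exceeded 300 nt, so that filter removed none.

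The share of all counts, 0.0807% in Ribo-seq and 0.173% in RNA-seq, was 0.0853% in Ribo-seq and 0.193% in RNA-seq with the 16 nuclear copies of the same length added, 0.123% in Ribo-seq and 0.194% in RNA-seq when AT2G07732, the counterpart of ATMG00280, was added as well (chosen after seeing the data), 0.0135% in Ribo-seq and 0.171% in RNA-seq without ATMG00280 (chosen after seeing the data), and 14.8% in Ribo-seq and 14.3% in RNA-seq of mitochondrial genes alone. The large fall without ATMG00280 was in Ribo-seq. Of the 29 named ORFs, all kept their side of -1 with a pseudocount of 1 and on CPM, while 22 values with that pseudocount and 24 on CPM left their counting interval. Summed with a near-identical nuclear gene, 4 named ORFs left their counting interval and 3 did not. On CPM, ATMG00040 changed sign to 0.01 and ATMG01060 passed 1, at 1.59. Low footprint counts limit the single ratios: 63 ORFs had fewer than 100 footprints.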
